A study of Homo sapiens with 2 samples.

Results

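Telomerase, the H/ACA proteins that hold its RNA, and the shelterin proteins that cover telomeres were examined as 10 genes out of the 19096 gene symbols in the RNA sequencing tables of P493-6 cells. They are TERT, DKC1, GAR1, NHP2, NOP10, WRAP53, TERF1, TERF2, POT1 and TINF2, chosen by name, and each was represented by its transcript with the highest mean level over the libraries. All 10 were listed under these symbols. P493-6 is a human B cell line, labelled a B-cell lymphoma, in which tetracycline represses a c-Myc transgene until it is released. The MYC transcript stood at 2358 RPKM in high c-Myc cells, against 836 in low c-Myc cells, 2.82-fold higher; reads of the transgene and of the cell's own gene are not told apart in these tables. The high c-Myc group was 1 library of cells 24 h after release of the transgene, and the low c-Myc group was 1 library of cells at 0 h. Both carry the same transgene and were grown in the same medium with serum, and synthetic RNAs were added to both according to cell number. The level of c-Myc and the time since release differ together and cannot be told apart in this design. With 1 library per group no difference has a replicate check, conditions were not tested against each other, and the values describe only these libraries.

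Telomerase is a reverse transcriptase that adds telomere repeats to chromosome ends. TERT is its catalytic protein and is silent in most resting somatic cells, while activated B cells and most tumours express it, and c-Myc is known as an activator of the TERT gene. The RNA template of telomerase belongs to the H/ACA class and is bound by dyskerin (DKC1), GAR1, NHP2 and NOP10. The same core proteins take part in pseudouridylation of ribosomal RNA. WRAP53, also called TCAB1, brings the assembled enzyme to Cajal bodies and telomeres. In shelterin, TERF1 and TERF2 bind double-stranded repeats, POT1 binds the single-stranded overhang, and TINF2 links them.

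On the scale of the deposited RPKM, TERT and 3 of the 4 H/ACA core genes were more than 4-fold higher in high c-Myc cells, while NOP10, WRAP53 and the 4 shelterin genes among the 10 lay within 2-fold. TERT was near silent at 0 h and reached the level of TINF2 at 24 h. NOP10 stood apart from its partners DKC1, GAR1 and NHP2, since it was the only one of these 4 genes whose level was about the same in both libraries.

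c-Myc binds the E-box, the letters CACGTG, so the promoters of the genes that were higher are shown with that of NOP10, the core gene that was not. Each window runs from 250 bases before to 50 bases after the gene start in RefSeq (GRCh38.p14), is written 5′ to 3′ on the gene's strand, and has CACGTG, or the variant CACGCG on either strand, in capitals. Of the 10 members, 8 had a window in the RefSeq table and TERF1 and TERF2 did not. These coordinates belong to GRCh38.p14, not to hg18, the build named in the submitters' processing notes.
TERT, chr5:1295019-1295318, minus strand: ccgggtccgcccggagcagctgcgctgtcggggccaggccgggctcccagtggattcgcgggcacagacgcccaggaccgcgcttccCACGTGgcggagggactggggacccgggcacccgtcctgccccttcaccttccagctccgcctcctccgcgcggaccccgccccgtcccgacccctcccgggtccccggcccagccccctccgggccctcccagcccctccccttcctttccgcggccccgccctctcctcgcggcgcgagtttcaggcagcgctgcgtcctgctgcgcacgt
DKC1, chrX:154762614-154762913, plus strand: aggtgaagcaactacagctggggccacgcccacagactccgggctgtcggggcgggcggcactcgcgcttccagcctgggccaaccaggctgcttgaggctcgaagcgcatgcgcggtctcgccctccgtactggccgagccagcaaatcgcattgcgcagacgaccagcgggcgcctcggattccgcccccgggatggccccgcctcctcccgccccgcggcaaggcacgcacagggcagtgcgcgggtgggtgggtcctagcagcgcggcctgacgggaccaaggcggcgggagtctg
GAR1, chr4:109815512-109815811, plus strand: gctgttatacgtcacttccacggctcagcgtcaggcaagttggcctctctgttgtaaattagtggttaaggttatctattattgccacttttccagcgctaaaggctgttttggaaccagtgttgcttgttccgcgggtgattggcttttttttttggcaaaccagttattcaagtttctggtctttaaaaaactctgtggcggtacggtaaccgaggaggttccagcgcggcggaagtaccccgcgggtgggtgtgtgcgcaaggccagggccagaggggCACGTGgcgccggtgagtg
NHP2, chr5:178153836-178154135, minus strand: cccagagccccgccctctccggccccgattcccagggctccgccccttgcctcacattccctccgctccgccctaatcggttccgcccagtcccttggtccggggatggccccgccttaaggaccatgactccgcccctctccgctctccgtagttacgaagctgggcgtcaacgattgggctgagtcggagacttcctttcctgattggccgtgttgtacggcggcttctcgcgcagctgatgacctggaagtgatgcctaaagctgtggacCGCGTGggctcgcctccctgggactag
NOP10, chr15:34343087-34343386, minus strand: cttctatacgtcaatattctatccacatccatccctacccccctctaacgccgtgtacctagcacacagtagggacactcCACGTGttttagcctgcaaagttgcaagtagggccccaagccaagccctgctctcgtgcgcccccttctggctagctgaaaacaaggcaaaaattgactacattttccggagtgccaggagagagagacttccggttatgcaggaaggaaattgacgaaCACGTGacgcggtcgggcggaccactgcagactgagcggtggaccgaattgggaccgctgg

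The TERT window held 1 CACGTG, starting at base -163 relative to the gene start, and a further CACGTG began in the last bases of the window and ended just outside it in the GENCODE transcript. The NOP10 window held 2, at -170 and -11, more than any other window of these genes held within its bounds. GAR1 had windows for 2 starts, of which the one shown held 1 CACGTG at position 32 and the other none. The NHP2 window held no CACGTG and 1 variant CGCGTG at position 24, and the DKC1 window held neither. No window of WRAP53, POT1 or TINF2 held either motif. For comparison, 7.23% of the 34943 distinct windows in the table held CACGTG, 0.661% held it at least 2 times, and 11.4% held the variant. Among the 7662 expressed genes with a window, 13.3% held CACGTG and 23.1% the variant, and 33.2% of those with CACGTG and 22.9% of those without were higher by 2-fold or more in high c-Myc cells. A match of letters is a description, and a window without one says only that the letters are absent there. The TERT window was the richest in G and C of the 12 windows of these genes, at 77.3%, against 54.7% for NOP10.

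Values are RPKM, which divides reads by transcript length and library size, so levels of different genes within a library are set side by side. RPKM does not correct for GC content or for reads shared between genes, so such comparisons are approximate. Synthetic RNAs made up 17.5% of the summed RPKM at 0 h, against 2.75% at 24 h. The deposited scale keeps this unequal share. Scaling to the same RPKM sum without synthetic RNAs moved the median log2 ratio by -0.30. How much of that shift the share accounts for was not tested. The steps between the lowest values implied about 105200000 reads for high c-Myc cells and 103000000 for low c-Myc cells, which gives a transcript of 2 kb about 210 reads per unit of RPKM in the first and 206 in the other. Reads copied by PCR are not independent molecules, so intervals on them hold counting error alone. A gene was taken as expressed when its mean RPKM over the libraries reached 1. Of all symbols 10272 passed, among them 9 of the 10 members, and TERF1 did not. B cell markers fitted the label, with CD79A at 460 RPKM in high c-Myc cells and 1202 in low c-Myc cells, and PAX5 at 121 in high c-Myc cells and 154 in low c-Myc cells. Among markers of other cells, CD3D was at 0 in both libraries and CD14 was at 0.0746 RPKM in high c-Myc cells and 0.0699 in low c-Myc cells. Others of these lists were expressed and lower in high c-Myc cells. CD68 was at 11.1 RPKM in high c-Myc cells and 66.5 in low c-Myc cells, and ITGAM at 19.5 and 56.8. LYZ was at 4.91 in high c-Myc cells and 27.2 in low c-Myc cells, and CD3E at 1.50 and 8.30. The 5 myeloid markers summed to 35.6 RPKM in high c-Myc cells and 151 in low c-Myc cells, and the 4 T cell markers to 1.96 in high c-Myc cells and 12.5 in low c-Myc cells. The 5 fibroblast and epithelial markers summed to 13.0 RPKM in high c-Myc cells and 19.2 in low c-Myc cells, the 3 NK cell markers to 0.0207 in high c-Myc cells and 0.0664 in low c-Myc cells, and the 3 erythroid markers to 0.165 in high c-Myc cells and 0 in low c-Myc cells. Their part in the results below was not tested.

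**Figure D1:**
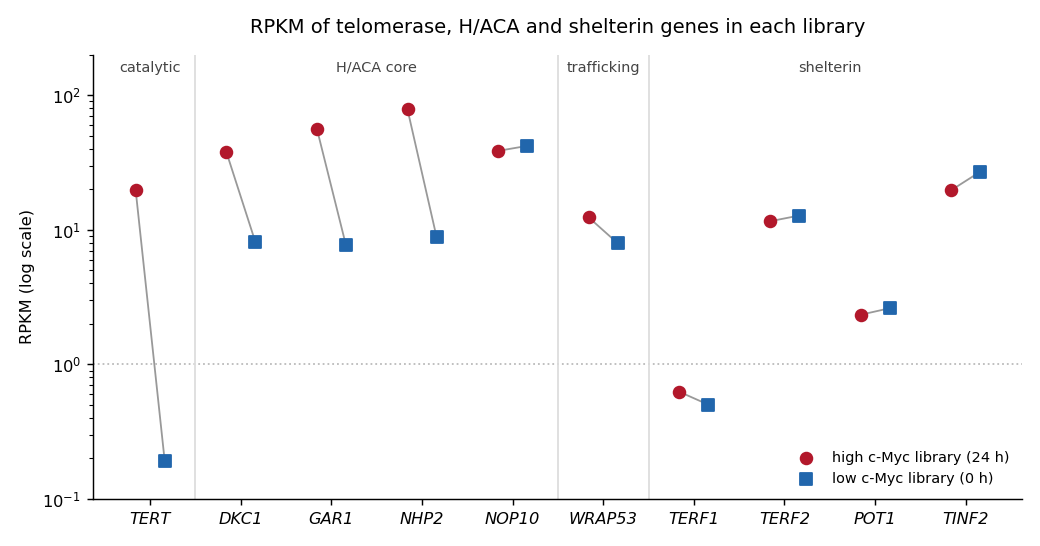
RPKM (log axis) of each gene in the high c-Myc library (red circles, 24 h) and the low c-Myc library (blue squares, 0 h), with a line joining the values of 1 gene and a dotted line at 1 RPKM. TERT stood at 19.7 RPKM in high c-Myc cells against 0.193 in low c-Myc cells, DKC1, GAR1 and NHP2 were higher in high c-Myc cells, and NOP10 and the 4 shelterin genes shown had nearly level lines.

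TERT was at 19.7 RPKM in high c-Myc cells, against 0.193 RPKM in low c-Myc cells. They rested on about 6655 reads in high c-Myc cells and 64 in low c-Myc cells, and their ratio was 102-fold, with a 95% interval of 79.6 to 132 (exact binomial, counting error only). On the log2(RPKM + 0.5) scale, which understates the difference of a gene this low at 0 h, the log2 ratio of high over low was 4.87, rank 10 of the 10272 expressed genes. By level TERT ranked 3237 in high c-Myc cells, against 10238 in low c-Myc cells, among genes that passed the filter on the mean of both libraries. That filter leaves out genes low in both libraries, and TERT passed it through its level at 24 h. Its place near the bottom at 0 h is therefore partly set by the filter. The other TERT transcript in the tables, NM_198253, was at 19.6 RPKM in high c-Myc cells, against 0.196 in low c-Myc cells.

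The TERT transcript has a GC content of 66.3%, against a median of 50.3% over expressed genes, and ratios in these libraries went with GC content. After a correction for GC content the log2 ratio of TERT was 3.52, still past 2-fold. The expressed genes nearest to TERT by distance over the log2 levels of the 2 libraries were LRP3, at 19.95 RPKM in high c-Myc cells, against 0.168 in low c-Myc cells, FJX1, at 14.8 in high c-Myc cells and 0.231 in low c-Myc cells, and NAT8L, at 16.8 in high c-Myc cells and 0.405 in low c-Myc cells. Likeness over 2 libraries is a description of levels only.

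DKC1, the pseudouridine synthase of the H/ACA particle and the gene of X-linked dyskeratosis congenita, was at 38.1 RPKM in high c-Myc cells, against 8.16 in low c-Myc cells. That is a 4.67-fold higher level (4.45 to 4.89, counting error only) and a log2 ratio of 2.15. GAR1, the subunit that joins the particle at a late step, was at 56.3 RPKM in high c-Myc cells, against 7.72 in low c-Myc cells, 7.29-fold higher (6.78 to 7.86), with a log2 ratio of 2.79. NHP2, an RNA-binding protein of the core, was at 78.5 RPKM in high c-Myc cells, against 8.89 in low c-Myc cells, 8.83-fold higher (8.20 to 9.51), with a log2 ratio of 3.07. In level these 3 genes lay within 1.15-fold of each other in the low c-Myc library, and NHP2 was 2.06-fold above DKC1 in the high one. Their counting intervals do not overlap, but after the GC correction GAR1 (2.90) and NHP2 (2.87) changed places, with DKC1 lowest of the 3 at 2.26. By ratio NHP2, GAR1 and DKC1 ranked 195, 307 and 672 among expressed genes.

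NOP10, the smallest core protein, which contacts the catalytic face of dyskerin, was at 38.6 RPKM in high c-Myc cells, against 42.1 in low c-Myc cells. Its log2 ratio was -0.12 (0.918-fold, 0.867 to 0.973, counting error only), rank 6544. Over the other settings the ratio ran from -0.74 under quantile normalization to -0.004 after the GC correction, within 2-fold in each. NOP10 was therefore the most abundant core transcript at 0 h and lay next to DKC1 at 24 h. Relative to DKC1, NOP10 stood at 1.01 in high c-Myc cells, against 5.16 in low c-Myc cells. The highest core level was 2.06 times the lowest in the high c-Myc library and 5.45 times the lowest in the low one. Without NOP10 the order was the other way, with 2.06 in high c-Myc cells, against 1.15 in low c-Myc cells. The summed level of the 4 core genes was 212 RPKM in high c-Myc cells, against 66.8 in low c-Myc cells.

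**Figure D2:**
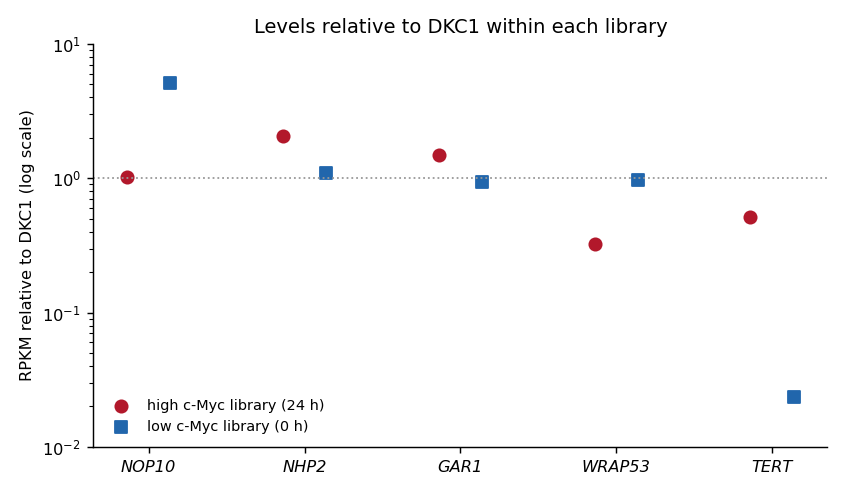
RPKM of each gene divided by that of DKC1 in the same library (log axis), in the high c-Myc library (red circles) and the low c-Myc library (blue squares). NOP10 lay at 1.01 in high c-Myc cells against 5.16 in low c-Myc cells, and TERT at 0.518 in high c-Myc cells against 0.0236 in low c-Myc cells, so both lay nearer to DKC1 in high c-Myc cells, from opposite sides.

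WRAP53 was at 12.4 RPKM in high c-Myc cells, against 7.94 in low c-Myc cells, a log2 ratio of 0.61 that lies within 2-fold (1.56-fold, 1.46 to 1.66, counting error only). Its 4 transcripts in the tables had log2 ratios of 0.597 to 0.608. Relative to DKC1, WRAP53 stood at 0.325 in high c-Myc cells, against 0.973 in low c-Myc cells, so the ratio of the trafficking factor to dyskerin was lower at 24 h. In the low c-Myc library DKC1, GAR1, NHP2 and WRAP53 were each 40.0 to 46.1 times the level of TERT and NOP10 was 218 times. In the high c-Myc library the multiples were 1.93 for DKC1, 2.86 for GAR1, 3.98 for NHP2, 1.96 for NOP10 and 0.627 for WRAP53. TERT was thus the lowest of these 6 transcripts at 0 h and above WRAP53 at 24 h. The RNA subunit of telomerase, TERC, was looked for by that symbol and not found, so it was not analysed here.

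Among the 4 shelterin genes of the 10, TINF2, which tethers TERF1, TERF2 and the POT1 arm to each other, had the highest level, at 19.7 RPKM in high c-Myc cells, against 27.0 in low c-Myc cells. Its log2 ratio was -0.45 (0.729-fold, 0.699 to 0.760, counting error only), and under quantile normalization of the libraries it was -1.01, just past 2-fold lower. TERF2, which promotes the protective t-loop, was at 11.6 RPKM in high c-Myc cells, against 12.8 in low c-Myc cells, a log2 ratio of -0.13 (0.908-fold, 0.867 to 0.950). POT1 was at 2.34 RPKM in high c-Myc cells, against 2.61 in low c-Myc cells, also a log2 ratio of -0.13 (0.894-fold, 0.818 to 0.976), which was 0.46 after the GC correction, its transcript having a low GC content of 37.7%. TERF1 was the lowest of the 4, at 0.625 RPKM in high c-Myc cells, against 0.502 in low c-Myc cells, on about 110 reads in high c-Myc cells and 87 in low c-Myc cells. Its ratio of 1.25-fold had a counting interval of 0.926 to 1.66, so no difference was detectable at this depth, and its sign turned when ratios were centred on the median gene (-0.05) or the libraries scaled to the same RPKM sum. The order TINF2, TERF2, POT1, TERF1 held in both libraries, with TINF2 at 1.70 times TERF2 in the high c-Myc library and 2.12 times in the low one.

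Read over all genes, 24.9% of expressed genes reached a 2-fold higher level and 9.74% a 2-fold lower level on the deposited scale, and the median log2 ratio was 0.22, with quartiles at -0.44 and 0.997. Of the 9 members that passed the filter, 4 were at least 2-fold higher, none at least 2-fold lower, and 5 lay between. The 4 were TERT, DKC1, GAR1 and NHP2, at percentiles 93.5 to 99.9 of all ratios. WRAP53 lay at percentile 64.0 and NOP10, TERF2, POT1 and TINF2 at percentiles 24.8 to 36.3, below the median gene. TERT, DKC1, GAR1 and NHP2 stayed more than 2-fold higher under every pseudocount and scaling tried. Members with several transcripts gave log2 ratios that differed by at most 0.21, in GAR1.

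**Figure D3:**
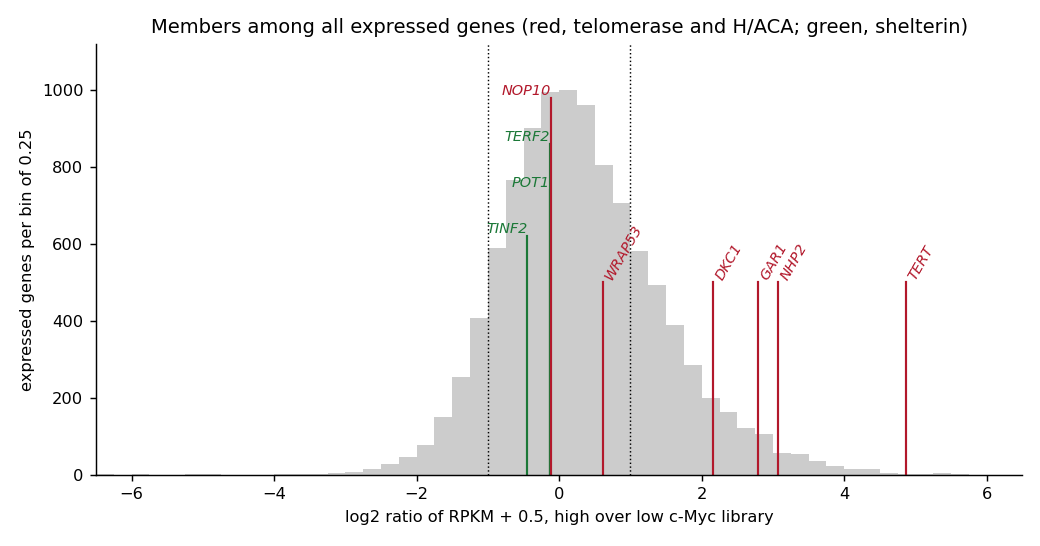
Histogram of the log2 ratio of RPKM + 0.5, high over low c-Myc, over all 10272 expressed genes (grey, bins of 0.25), with lines for the 9 members that passed the filter and dotted lines at 2-fold. The 3 shelterin genes shown (green) and NOP10 lay between -0.45 and -0.12, and TERT at 4.87.

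**Figure D4:**
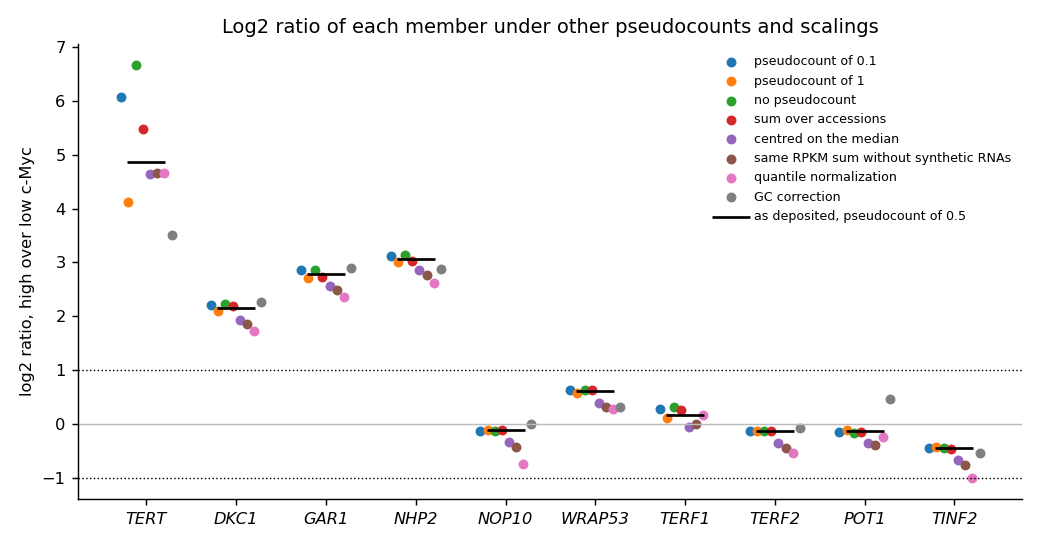
Log2 ratio of each gene on the deposited scale (black bar) and under other pseudocounts, a sum over transcripts, other scalings and the GC correction (coloured points), with dotted lines at 2-fold; TERF1 has no GC-corrected value. TERT ranged from 3.52 to 6.67 and stayed past the upper line, while NOP10, WRAP53, TERF1, TERF2 and POT1 stayed between the lines.

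Set against the synthetic RNAs, which gives a scale per cell, every member was higher in high c-Myc cells. The 46 synthetic RNAs that reached 1 RPKM in each library had a median log2 ratio of -2.56 (SD 0.54 over synthetic RNAs), and subtracting it shifts all genes alike. Per cell 97.1% of expressed genes were at least 2-fold higher and 0.0876% at least 2-fold lower, so that all 9 members past the filter being higher is close to the background. The per-cell log2 ratio was 7.42 for TERT, 5.63 for NHP2, 5.35 for GAR1, 4.71 for DKC1, 3.16 for WRAP53, 2.72 for TERF1, 2.44 for NOP10, 2.42 for TERF2 and POT1, and 2.11 for TINF2, against a median of 2.78 over expressed genes. TERT was 601-fold higher per cell when its RPKM ratio was taken with no pseudocount. In the column that the authors renormalized to the synthetic RNAs, TERT stood at 43.0 in high c-Myc cells, against 0.0885 in low c-Myc cells, and TINF2 at 42.8 in high c-Myc cells and 12.5 in low c-Myc cells. In that column NOP10 was at 84.7 in high c-Myc cells, against 19.2 in low c-Myc cells. TERT and TINF2 thus had near equal values at 24 h in that column, as they had in RPKM. Within a library the column ran nearly in proportion to RPKM for the members, so this is not a separate observation. In bulk RNA a difference in the make-up of the cells and in RNA per cell cannot be told apart.

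Several genes in a list for telomerase assembly and maturation were higher too, and the list median was above that of all genes. Not every gene of the list is a builder of the enzyme. Of 15 genes of telomerase assembly and maturation in the tables, 8 were at least 2-fold higher, 1 at least 2-fold lower and 6 between. The shares over all expressed genes were 24.9% higher and 9.74% lower. With centring on the median, the same RPKM sum or quantile normalization, 6 were higher. The median log2 ratio was 1.002 against 0.22 over all expressed genes. TOE1, the gene at that median, was within 2-fold in these settings (0.72 to 0.81). NAF1, which loads H/ACA RNAs before GAR1 takes its place, had the highest ratio, at 14.5 RPKM in high c-Myc cells, against 0.992 in low c-Myc cells (log2 ratio 3.33). RUVBL2, an ATPase of the particle's assembly, was at 176 RPKM in high c-Myc cells, against 21.1 in low c-Myc cells (log2 ratio 3.03). TEP1, a protein first found with telomerase that is also part of vaults, was the lower gene, at 3.86 RPKM in high c-Myc cells, against 11.2 in low c-Myc cells (log2 ratio -1.43), and ZCCHC8, of the nuclear exosome targeting complex, had a log2 ratio of -0.23. The 4 core proteins of the box C/D particle, the methylation counterpart of the H/ACA particle, were all at least 2-fold higher, with a median of 1.50. FBL, its methyltransferase, was at 443 RPKM in high c-Myc cells, against 53.4 in low c-Myc cells, and NHP2L1, with the smallest ratio, at 116 in high c-Myc cells and 47.2 in low c-Myc cells (log2 ratio 1.28). Quantile normalization left FBL past 2-fold and brought the other 3 below it, NHP2L1 to 0.70. NHP2L1 was also within 2-fold with the same RPKM sum (0.97).

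Genes that act at the telomere itself lay nearer to the median gene. Of 10 other shelterin subunits and shelterin-bound factors, 3 passed 2-fold upwards and 0 downwards, beside 24.9% and 9.74% of all expressed genes; the median was 0.42. With the libraries scaled to the same RPKM sum the counts were 2 upwards and 2 downwards, HMBOX1 at -1.08 and TNKS2 at -1.03. RTEL1, a helicase that opens t-loops, was at 24.0 RPKM in high c-Myc cells, against 5.63 in low c-Myc cells (log2 ratio 1.997), and DCLRE1B, the nuclease Apollo, at 6.53 in high c-Myc cells and 1.91 in low c-Myc cells (1.54). HMBOX1, a protein that binds telomere repeats, had a log2 ratio of -0.80 and the tankyrase TNKS2 one of -0.74. The remaining shelterin subunits, named here outside the rule for named genes, were ACD, the TPP1 protein that recruits telomerase, at 19.8 RPKM in high c-Myc cells, against 8.57 in low c-Myc cells (log2 ratio 1.16), and TERF2IP, at 31.1 in high c-Myc cells and 21.6 in low c-Myc cells (0.52). ACD was thus past 2-fold as deposited, and within it at 0.77 to 0.94 under the other scalings; it has no GC-corrected value. Of 7 genes of the CST complex and polymerase alpha-primase, which fill in the C-rich strand, POLA2 was higher (log2 ratio 1.50) and CTC1 lower (-1.06, and -0.99 with a pseudocount of 1), with a median of 0.37.

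Of 11 genes of telomeric chromatin and the recombination pathway of telomere upkeep, 2 were higher and 2 lower, beside 24.9% and 9.74% of all expressed genes, with a median of 0.04. After the GC correction 4 were higher, with WRN (1.34) and RMI1 (1.25) added, and 1 was lower. The higher genes were ASF1B (1.55), a histone chaperone of dividing cells, and TOP3A (1.26, and 0.90 under quantile normalization), a topoisomerase that unlinks joined DNA. The lower genes were ATRX, which deposits histone H3.3 at telomeres, at 4.12 RPKM in high c-Myc cells, against 9.91 in low c-Myc cells (-1.17, and -0.50 after the GC correction), and H3F3A (-3.00), whose reads can be shared with near-identical copies and whose value is uncertain. Of 13 factors reported at the TERT promoter, 11 passed the filter, of which 4 were higher and none was lower as deposited. The shares over all expressed genes were 24.9% and 9.74%, and the list median was 0.71. The 4 include MYC itself (1.50), the gene whose transgene was released, so the count and median are not independent of the design. E2F1 had the highest ratio, at 59.0 RPKM in high c-Myc cells, against 8.60 in low c-Myc cells (2.71), followed by MNT (1.68), a repressor that competes with c-Myc for MAX. ETS1 (-0.75) and GABPA (-0.68) were the lowest; ETS1 was past 2-fold lower with the same RPKM sum (-1.06) and under quantile normalization (-1.32), and GABPA was 0.02 after the GC correction. MEN1, another of the 4 higher genes (1.36), was within 2-fold under quantile normalization (0.83) and the GC correction (0.78).

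**Figure D5:**
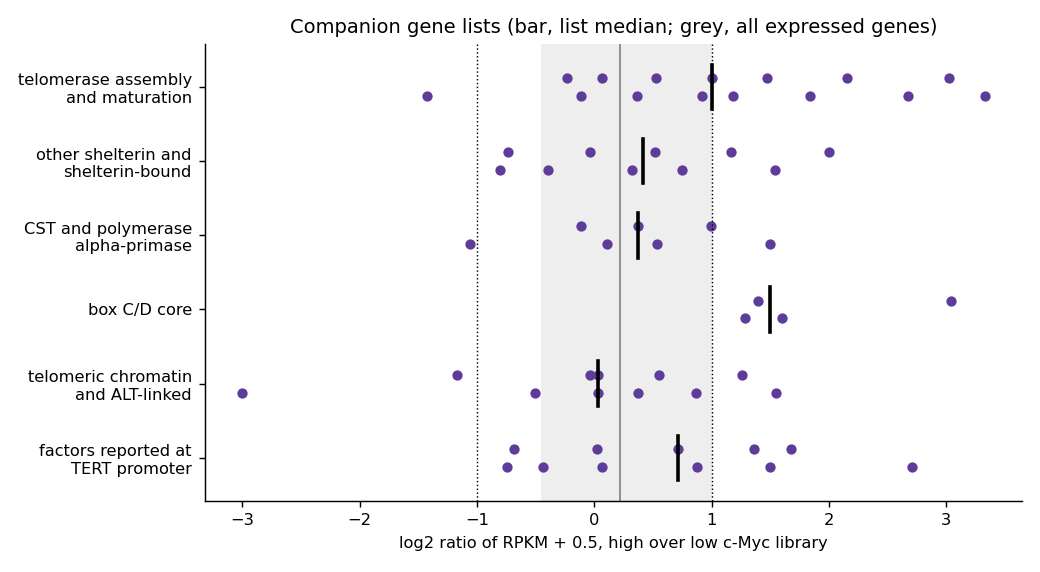
Log2 ratio of RPKM + 0.5, high over low c-Myc, for each expressed gene of 6 companion lists (points), with the list median (black bar), the median and interquartile range of all expressed genes (grey line and band) and dotted lines at 2-fold. All 4 box C/D core genes lay past 2-fold as deposited, and the assembly list had a median of 1.002, at the upper dotted line.

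Some of these values can hold reads of other genes, since the sources used here do not say whether counting used the strand. In GENCODE release 29 the exons of NHP2 share 414 bases, 27.4% of its exon bases, with RMND5B on the opposite strand, which was at 20.6 RPKM in high c-Myc cells, against 18.6 in low c-Myc cells (log2 ratio 0.14; named after its values were seen). DKC1 exons overlap the small RNA genes SNORA36A, SNORA56 and MIR664B in the same direction. By gene name TERF1 has 5 pseudogenes and NHP2 has 2, so their values are uncertain.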

How the data were processed

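Per the labels' protocols, poly(A) RNA of each sample was sequenced after dUTP marking of the second strand and PCR; synthetic RNAs had been added by cell number. Per the submitters' processing notes, Bowtie and build hg18 were used; sources used here do not name the counting tool. The authors deposited RPKM values for 34194 transcript rows and 92 synthetic RNAs, and a column they renormalized to the synthetic RNAs, used only as an alternative. Each symbol took its row with the highest mean RPKM. Log2 ratios used RPKM + 0.5, and a gene counted as higher or lower at or beyond 1 or -1. Per-cell ratios subtract the median of the synthetic RNAs. Reads were approximated from RPKM, GENCODE release 29 transcript lengths and the depth at which low values fell on whole reads (45.9% and 49.3% within 0.05 of a whole number in the high and low c-Myc libraries, against 10% by chance), and 95% exact binomial intervals on them cover counting error only. The GC correction subtracted the median ratio of 20 GC bins, with a value for 96.8% of expressed genes. RefSeq promoter windows and GENCODE exons are on GRCh38, so no position was carried between builds.

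Members and lists were chosen with earlier results of these data known. The rule for named genes took all members and the 3 genes nearest to TERT. Of each companion list it took the 2 highest and 2 lowest ratios at most. Values of some genes this rule takes are left out. Some other genes are named, mostly where a setting or the design bears on a count. The procedure was tested on simulated data. Plots were drawn with matplotlib 3.10.9 and values computed with pandas 2.3.3, scipy 1.17.1 and numpy 2.4.6 in Python 3.11.15.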

Additional observations from a re-analysis of the deposited data

How the results depend on the processing

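No paired analysis was possible because each group held 1 library, and for the same reason no replicate could be left out. The 4 members counted as higher on the deposited scale were 4 under each alternative; the 0 counted as lower became 1 (TINF2) under quantile normalization. All genes at least 2-fold lower numbered 1001 as deposited, 649 with a mean RPKM of at least 5, 1516 after centring on the median, 1686 with the same RPKM sum without synthetic RNAs and 1749 after quantile normalization. These scalings moved the median log2 ratio by -0.22, -0.30 and -0.29, and with them the higher genes made up 57.3%, 52.7% and 50.6% of all calls, against 71.8% on the deposited scale. Entries of the companion lists counted as lower were 4 as deposited and 7 with the same RPKM sum, and those counted as higher were 22 as deposited and 14 after quantile normalization. Per cell, all genes at least 2-fold lower numbered 9, and 15 with a pseudocount of 0.1, 18 with no pseudocount and 18 in the authors' renormalized column; the companion entries lower per cell were 0, and 1 in each of these 3 settings. The causes were not tested. The per-cell log2 ratio of TERT ranged from 6.21 to 9.23 over the alternatives. The values of TERT at 0 h and of TERF1 rested on the fewest reads, which limits their precision.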
